A study of Mus musculus with 14 samples.

Results

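The genes described here encode the urea cycle and the proteins that feed it and carry its intermediates across the inner mitochondrial membrane. They were Cps1, Otc, Ass1, Asl, Arg1, Nags, Gls2, Slc25a13 and Slc25a15, chosen by function from a list of 9. Of these, 8 had a probe set with a single gene symbol among the 22180 genes measured, and Gls2, the liver glutaminase, was not analysed here. Liver RNA came from 14 mice, all male and of the inbred strain C57BL/6J, with 7 sleep-deprived mice (mice 1, 2, 3, 5, 6, 10 and 13) and 7 control mice (mice 4, 7, 8, 9, 11, 12 and 14). Each sample was taken as 1 mouse, which the labels do not state. The sleep-deprived mice had lost sleep once, for 6 h. Sleep was disturbed in the study by changing cages, by a platform in water or by gentle handling. Which method these mice had is not in the labels, nor is the age, feeding state or hour of sampling of the mice.

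The urea cycle turns ammonia, released when amino acids are broken down, into urea for excretion, and in mammals the complete cycle runs mainly in hepatocytes around the portal vein. Its first steps lie in the mitochondrion and its later steps in the cytosol, so that ornithine, citrulline and aspartate have to cross the inner mitochondrial membrane. Transcription of its enzymes is known to respond to glucagon, glucocorticoids and dietary protein.

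Values are log2 expression per probe set, the brightest one standing for each gene. On this scale a difference of 1 is a doubling. Differences are sleep-deprived minus control, tested with limma across all genes and adjusted by the Benjamini-Hochberg method, and a gene was called changed at an adjusted p under 0.05. Errors of differences are limma's moderated standard errors. Medians of the arrays lay between 3.443 and 3.491, and pairs of arrays correlated at 0.9889 to 0.9955 over the genes. The 11 measured of 12 hepatocyte markers averaged 11.36 to 11.49 in the sleep-deprived livers and 11.28 to 11.41 in the control livers. In bulk tissue, fewer cells of a type and less RNA per cell cannot be told apart.

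After sleep deprivation 3 of the 8 measured genes rose and 0 fell. Across all 22180 genes 8.5% were called, 3.88% as higher and 4.62% as lower. All 8 are among the brighter genes, and a larger share of those was called. With the 11090 brighter genes fitted alone, 1046 were called higher and 1213 lower, and again 3 of the 8 were higher. Asl, which makes arginine, rose 1.3-fold, Slc25a15, the ornithine and citrulline carrier, 1.19-fold, and Cps1, the entry enzyme, 1.08-fold. The other 5 genes did not pass, although Arg1 and Otc had an unadjusted p under 0.05, with differences of opposite sign. The median difference of the 8 genes was 0.11 on the log2 scale, against -0.0048 over all genes.

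**Figure D1:**
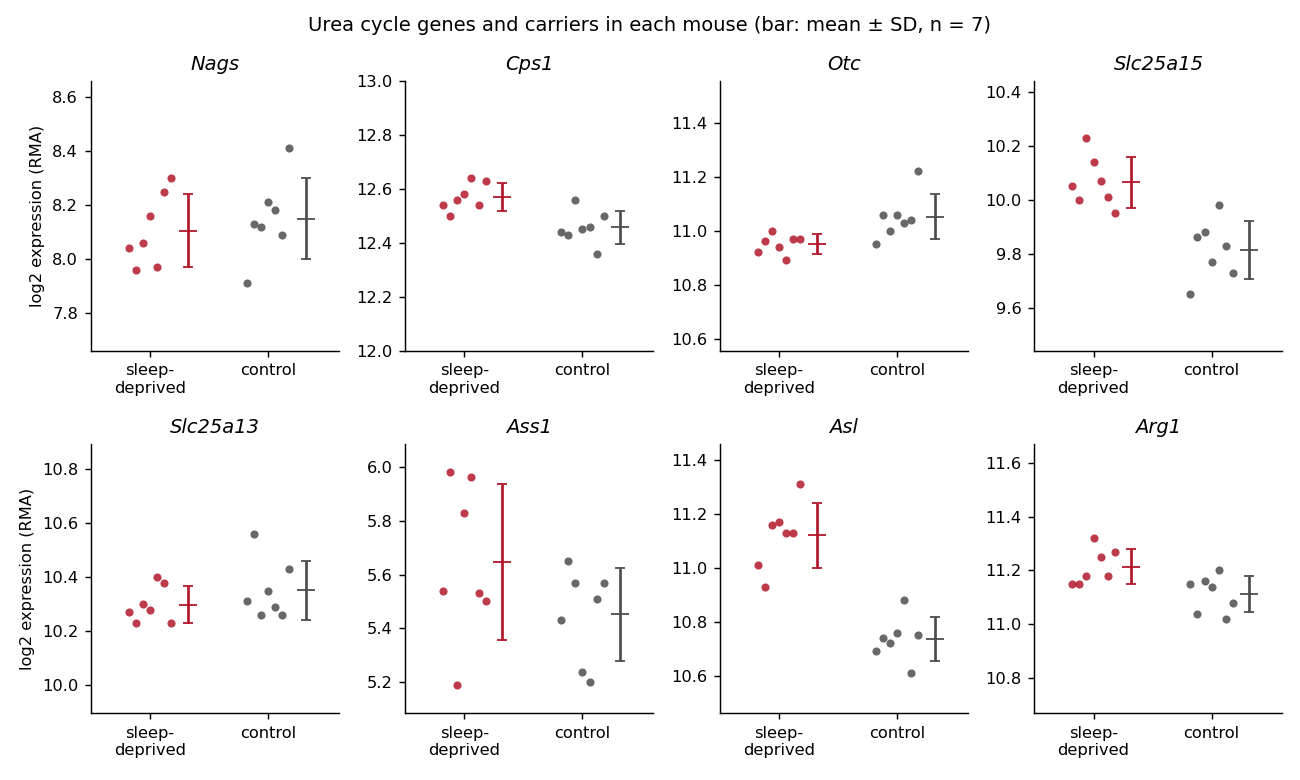
Log2 expression of the 8 measured genes in each mouse, with the 7 sleep-deprived mice left of the 7 control mice, each point 1 mouse and each bar the mean ± SD. Every panel spans 1 log2 unit, and Asl was the gene whose groups did not overlap.

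Nags makes N-acetylglutamate, the activator without which CPS1 is inactive. Its brighter probe set (17256882) lay between 7.96 and 8.30 with a median of 8.06 in sleep-deprived mice, and between 7.91 and 8.41 with a median of 8.13 in control mice. The ranges overlapped almost entirely, and the log2 difference was -0.046 ± 0.071 (95% interval -0.19 to 0.10; limma, adjusted p = 0.817). A dimmer probe set (17270060) was at 6.26 in sleep-deprived and 6.22 in control livers on average, so that the sign of the difference for Nags depended on the probe set.

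Cps1 encodes carbamoyl phosphate synthetase 1, which joins ammonia and bicarbonate in the mitochondrial matrix (probe set 17213894). Its log2 level lay between 12.50 and 12.64 with a median of 12.56 in sleep-deprived mice, and between 12.36 and 12.56 with a median of 12.45 in control mice. All 7 sleep-deprived mice were above the control mean and 3 above every control, while 5 of the 7 control mice were below every sleep-deprived mouse. The difference was 0.11 ± 0.034 (limma, adjusted p = 0.0417). Leaving out each mouse in turn ended this call in 10 of 14 fits (highest adjusted p 0.0949), while the difference stayed between 0.097 and 0.13.

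Otc, on the X chromosome, encodes ornithine transcarbamylase, which makes citrulline from ornithine and carbamoyl phosphate (probe set 17533253). Its log2 level lay between 10.89 and 11.00 with a median of 10.96 in sleep-deprived mice, and between 10.95 and 11.22 with a median of 11.04 in control mice. All 7 sleep-deprived mice were below the control mean. The groups overlapped, and the difference of -0.099 ± 0.039 did not pass (95% interval -0.18 to -0.019; limma, adjusted p = 0.137).

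The pair of carriers differed in outcome. Slc25a15 encodes the carrier that exchanges cytosolic ornithine for mitochondrial citrulline (probe set 17508036). Its log2 levels were 10.05, 10.00, 10.23, 10.14, 10.07, 10.01 and 9.95 in sleep-deprived mice 1, 2, 3, 5, 6, 10 and 13, against 9.65, 9.86, 9.88, 9.77, 9.98, 9.83 and 9.73 in control mice 4, 7, 8, 9, 11, 12 and 14. Of the sleep-deprived mice 6 lay above every control, and the groups met only between sleep-deprived mouse 13 and control mouse 11. The rise was 0.25 ± 0.053 (95% interval 0.14 to 0.36; limma, adjusted p = 0.0038), and it passed whichever of the 14 mice was left out (highest adjusted p 0.0111).

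Slc25a13 encodes citrin, which exports aspartate from the mitochondrion in exchange for glutamate and so supplies the second nitrogen of urea (probe set 17464672). It lay between 10.23 and 10.40 with a median of 10.28 in sleep-deprived mice, and between 10.26 and 10.56 with a median of 10.31 in control mice. The groups overlapped over most of their range, with a difference of -0.056 ± 0.049 (95% interval -0.16 to 0.046; limma, adjusted p = 0.619).

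Promoter sequences, from 250 bases before to 50 bases after a start site, were taken from RefSeq (GRCm38.p6), where 5 of the 9 genes had an entry and Slc25a15 had a pair of start sites. The promoters of the carriers are shown because 1 carrier rose and the other did not pass. Each was searched on both strands for TGACG, the half-site of the cAMP response element, TTGCNNAA, a C/EBP motif, AGAACA, a half-site of the glucocorticoid receptor, and GTAAACA, a FOXO motif. Bases in capitals mark a match, and all other bases are in lower case. The upstream start of Slc25a15 lies at chr8:22398572-22398871, its downstream start at chr8:22398228-22398527 and that of Slc25a13 at chr6:6217124-6217423, all on the minus strand and printed 5′ to 3′.
Slc25a15 upstream start: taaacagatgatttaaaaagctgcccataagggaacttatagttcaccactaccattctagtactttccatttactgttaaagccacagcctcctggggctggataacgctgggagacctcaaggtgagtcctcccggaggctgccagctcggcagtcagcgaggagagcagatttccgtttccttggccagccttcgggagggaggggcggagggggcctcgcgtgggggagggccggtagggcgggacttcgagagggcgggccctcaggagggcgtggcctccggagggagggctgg
Slc25a15 downstream start: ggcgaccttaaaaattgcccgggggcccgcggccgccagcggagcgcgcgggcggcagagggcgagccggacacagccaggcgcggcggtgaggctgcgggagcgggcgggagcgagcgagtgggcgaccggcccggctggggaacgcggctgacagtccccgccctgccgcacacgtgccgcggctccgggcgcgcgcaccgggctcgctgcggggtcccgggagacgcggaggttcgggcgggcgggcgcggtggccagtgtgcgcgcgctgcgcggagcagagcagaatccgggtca
Slc25a13: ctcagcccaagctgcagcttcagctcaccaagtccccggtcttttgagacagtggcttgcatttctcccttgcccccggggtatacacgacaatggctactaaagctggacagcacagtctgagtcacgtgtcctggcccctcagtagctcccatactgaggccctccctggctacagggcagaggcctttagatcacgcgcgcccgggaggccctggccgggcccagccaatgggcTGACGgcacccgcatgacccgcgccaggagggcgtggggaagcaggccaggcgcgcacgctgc

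In Slc25a13 the half-site TGACG began at position -13 from the start site. Neither Slc25a15 window held any of the 4 letter strings. Among all 32851 promoters of this length in the table, 20.8% held TGACG, 10.8% TTGCNNAA, 19.0% AGAACA and 3.65% GTAAACA. Of the 6 windows of the urea cycle genes 2 held TGACG, the other being Nags at position 32, and 0 held any of the other strings. Such matches describe the letters of a short window and are not binding data. GC content was 60.7% and 79.0% in the Slc25a15 windows and 65.0% in that of Slc25a13, against a median of 52.7% over the table.

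The cytosolic part of the cycle begins with Ass1, argininosuccinate synthetase, which joins citrulline to aspartate (probe set 17369487). It lay between 5.19 and 5.98 with a median of 5.54 in sleep-deprived mice, and between 5.20 and 5.65 with a median of 5.51 in control mice. Its level was above that of 68.6% of all genes, against 92.7% (Nags) to 99.9% (Cps1) for the other measured members. Whether this dim probe set follows the Ass1 transcript of liver was not tested. Of the 8 genes Ass1 varied most between mice, with SDs of 0.29 among sleep-deprived mice and 0.17 among control mice, and the groups overlapped. The difference of 0.19 ± 0.11 did not pass (95% interval -0.040 to 0.43; limma, adjusted p = 0.382), and that interval includes the size of the rises of Slc25a15 and Asl.

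Asl encodes argininosuccinate lyase, which splits argininosuccinate into arginine and fumarate (probe set 17453179). Its log2 levels were 11.01, 10.93, 11.16, 11.17, 11.13, 11.13 and 11.31 in sleep-deprived mice 1, 2, 3, 5, 6, 10 and 13, against 10.69, 10.74, 10.72, 10.76, 10.88, 10.61 and 10.75 in control mice 4, 7, 8, 9, 11, 12 and 14. The groups did not overlap, the lowest sleep-deprived mouse being mouse 2 and the highest control mouse 11. Asl was the 1 gene of the 8 with separate groups, against 3.13% of all genes (1.34% higher and 1.79% lower). The rise of 0.38 ± 0.052 (95% interval 0.27 to 0.49; limma, adjusted p = 6.32e-05) was larger in size than the differences of 96.4% of all genes.

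Arg1 encodes the liver arginase, which releases urea from arginine and returns ornithine to the cycle (probe set 17239845). It lay between 11.15 and 11.32 with a median of 11.18 in sleep-deprived mice, and between 11.02 and 11.20 with a median of 11.14 in control mice. All 7 sleep-deprived mice were above the control mean, while 3 of them were above every control. The difference was 0.10 ± 0.039 and did not pass (95% interval 0.022 to 0.19; limma, adjusted p = 0.124).

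**Figure D2:**
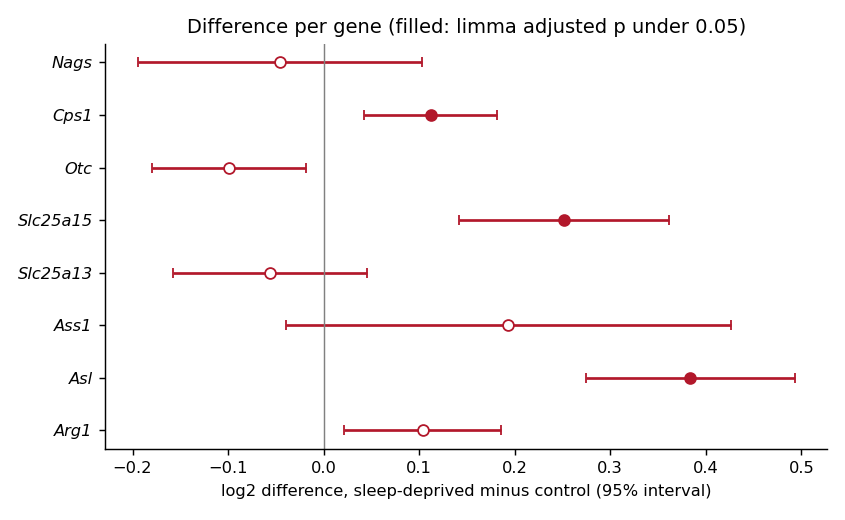
Log2 difference (sleep-deprived minus control) of each measured gene with its 95% interval, from the mitochondrial activator Nags at the top to the cytosolic Arg1 at the bottom. Filled points passed the adjusted p of 0.05 and were Cps1 (0.11), Slc25a15 (0.25) and Asl (0.38), and open points did not pass.

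The mean of the 11 hepatocyte markers was 0.09 higher in the sleep-deprived livers, and the median of their differences was 0.021. Tat (0.41) and Apoa1 (0.12) were called higher and 0 lower, Apoa1 not in 4 of 14 leave-one-out fits or in 4 of 10 other settings. Hnf4a (0.24) and Apoc3 (0.13) did not pass, and the other 7, Alb among them, lay between -0.014 and 0.060. With each array centred on that mean, a setting chosen after the data had been seen, Asl still rose (0.30 ± 0.050; limma, adjusted p = 0.000362). On that scale Slc25a15 was at 0.16 (adjusted p = 0.0847) and Cps1 at 0.023 (adjusted p = 0.719), whereas Otc was called lower at -0.19 (adjusted p = 0.0029) and Slc25a13 at -0.15 (adjusted p = 0.0428). The centring lowered the median of all genes to -0.094. Which of these scales is nearer to the RNA of a hepatocyte was not tested.

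Whether neighbouring enzymes changed by unequal amounts was tested within mice, by taking the log2 level of a step minus that of the step before it. Such a value cancels what scales all genes of an array alike. Its absolute size depends on the probes, so that only its difference between groups is read. Arg1 minus Asl lay between -0.042 and 0.22 in sleep-deprived mice and between 0.30 and 0.46 in control mice, without overlap, and fell by 0.28 (95% interval -0.37 to -0.19; exact permutation test, two-sided, adjusted p = 0.00233 over the 4 steps, its p of 0.000583 being the smallest that 3432 regroupings can give). The rise of Asl was larger than the difference of Arg1 in the same livers. Otc minus Cps1 lay between -1.74 and -1.54 in sleep-deprived mice and between -1.56 and -1.28 in control mice. It fell by 0.21 (95% interval -0.31 to -0.11; exact permutation test, adjusted p = 0.0035), with overlap between the groups.

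The steps on either side of Ass1, which rest on its dim probe set, did not pass. Ass1 minus Otc averaged -5.30 ± 0.31 in sleep-deprived mice and -5.60 ± 0.18 in control mice (SD, n = 7 each), a difference of 0.29 (95% interval -0.0026 to 0.59; exact permutation test, adjusted p = 0.0699). Sleep-deprived mouse 3, which had the lowest Ass1 level of its group, decided this outcome, since without it the difference was 0.38 (exact permutation test, adjusted p = 0.00777). Asl minus Ass1 averaged 5.47 ± 0.35 in sleep-deprived and 5.28 ± 0.23 in control mice (SD, n = 7 each), a difference of 0.19 (95% interval -0.16 to 0.54; exact permutation test, adjusted p = 0.254).

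**Figure D3:**
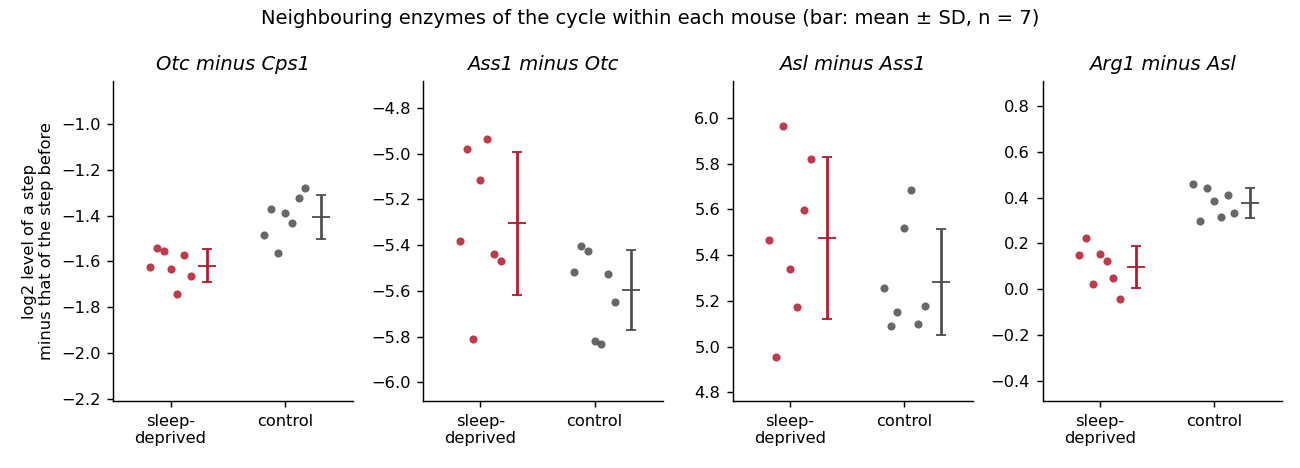
Log2 level of each cycle enzyme minus that of the enzyme before it, per mouse, with sleep-deprived mice left of control mice and bars for the mean ± SD (n = 7 each). All panels span the same number of log2 units, and Arg1 minus Asl was lower in all 7 sleep-deprived mice than in any control mouse.

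Deviations from the group mean were correlated for all 28 pairs of the 8 genes over 14 mice, and 17 pairs had r above 0, with a median of 0.07. After adjustment over the 28 pairs 0 passed for Pearson's r and 0 for Spearman's rho, while 5 and 5 had an unadjusted permutation p under 0.05. Asl and Arg1 had r = 0.66 (permutation p = 0.0130, adjusted 0.181) and rho = 0.68 (p = 0.0115, adjusted 0.107), and r was 0.63 without the 2 mice farthest out in Asl. Cps1 and Arg1 had r = 0.63 (permutation p = 0.0211, adjusted 0.195) and rho = 0.77 (p = 0.0034, adjusted 0.0952), and r was 0.52 without the 2 mice farthest out in Cps1. The highest r, 0.75 for Otc and Nags (permutation p = 0.00657, adjusted 0.181; rho = 0.70, p = 0.00914, adjusted 0.107), was 0.39 without the 2 mice farthest out in Otc and so rests on them.

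**Figure D4:**
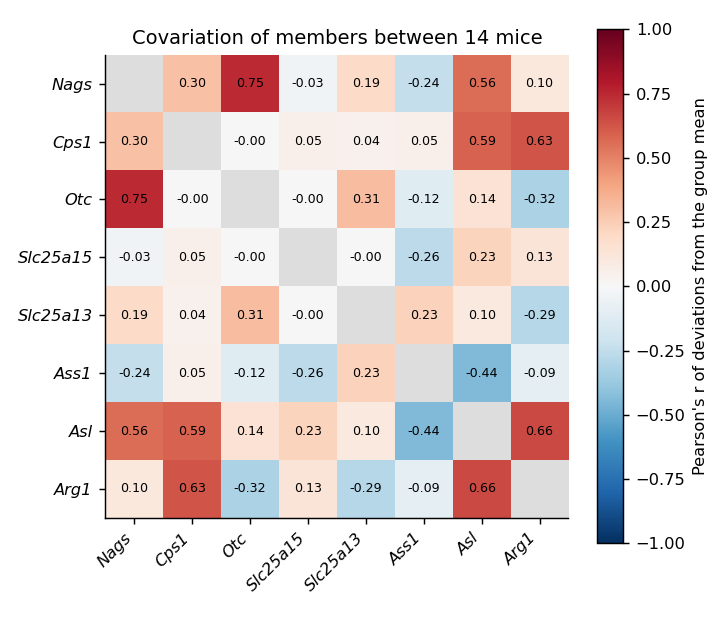
Pearson's r between the deviations from the group mean of each pair of genes over 14 mice, with genes ordered from mitochondrion to cytosol and the diagonal in grey. The highest values were those of Otc with Nags (0.75), Asl with Arg1 (0.66) and Cps1 with Arg1 (0.63), and 0 of 28 pairs passed after adjustment.

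Among 18674 other named genes, those whose deviations were most like the deviations of Asl over the 14 mice were Atp5j2 (r = 0.88), Gldc (0.88), Fip1l1 (0.86), Il6ra (0.86) and Cyp2b10 (0.84). Gldc encodes the glycine decarboxylase of the glycine cleavage system, which releases ammonia. Closest to Cps1 were Gnb3 (r = 0.89), Ctnnd2 (0.87), Nus1 (0.87), Zfp869 (0.85) and Aadacl2 (0.85). These are the highest of many correlations over the same arrays and describe these mice only. Without the 2 mice farthest out in Asl, r was 0.72 to 0.77 for its 5 genes. Without the 2 farthest out in Cps1, r was 0.71 to 0.87 for those of Cps1.

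Counts in this and the other lists stand beside 8.5% of all genes called, 3.88% higher and 4.62% lower. Among the 11090 brighter genes fitted alone, 1046 were higher and 1213 lower. Enzymes that deliver amino groups to the cycle changed in both directions, with 3 of 11 measured genes higher and 1 lower. Got1, the cytosolic aspartate aminotransferase, averaged 11.08 ± 0.19 in sleep-deprived and 10.48 ± 0.16 in control livers (SD, n = 7 each), a rise of 0.60 ± 0.079 (limma, adjusted p = 4.98e-05). Gldc rose by 0.85 ± 0.11 and Gpt2, the mitochondrial alanine aminotransferase, by 0.20 ± 0.044, which did not pass with centring on the hepatocyte markers (limma, adjusted p = 0.225). The histidase Hal, which frees ammonia from histidine, fell by 0.40 ± 0.062. The list's median was -0.06, since all 7 genes that did not pass had negative differences.

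On the aspartate and fumarate side, which links the cycle to the malate-aspartate shuttle, 2 of 9 genes rose (Got1 and Mdh2) and 1 fell (Slc25a11). Mdh2, the mitochondrial malate dehydrogenase, was at 0.15 ± 0.045 (limma, adjusted p = 0.0464), and Slc25a11, the oxoglutarate and malate carrier, at -0.18 ± 0.054 (limma, adjusted p = 0.0375). With each mouse left out in turn, their calls ended in 12 and 10 of 14 fits, and in 4 and 3 of 10 other settings. Slc25a12, the other aspartate and glutamate carrier, had a difference of -0.054 ± 0.075, which did not pass (limma, adjusted p = 0.787).

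Among 8 mitochondrial carriers of related substrates 2 rose and 2 fell. Of those that fell, Slc25a11 is also counted on the aspartate and fumarate side, and its call ended in 10 of 14 leave-one-out fits. Slc25a22, which brings glutamate into the matrix, averaged 9.56 ± 0.19 in sleep-deprived and 8.89 ± 0.12 in control livers (SD, n = 7 each). The groups did not overlap, and the rise was 0.67 ± 0.075 (limma, adjusted p = 7.58e-06). Slc25a10, the dicarboxylate carrier, fell by 0.43 ± 0.051, also without overlap (limma, adjusted p = 1.47e-05). Slc25a44, a carrier of branched-chain amino acids, was called higher at 0.23 ± 0.069 (limma, adjusted p = 0.0469). It was not called in 10 of 14 leave-one-out fits or in 3 of 10 other settings.

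In the list of arginine and ornithine fates outside the cycle, 1 of 18 measured genes was higher and 5 were lower. That list also holds enzymes of later steps and regulators, which do not use arginine or ornithine themselves. Odc1, the ornithine decarboxylase of polyamine synthesis, lay between 7.33 and 7.58 in sleep-deprived and between 6.97 and 7.11 in control mice and rose by 0.42 ± 0.051 (limma, adjusted p = 1.96e-05). Gatm and Gamt, which make creatine from arginine and glycine, were at -0.48 ± 0.090 (limma, adjusted p = 0.00134) and -0.44 ± 0.11 (adjusted p = 0.0108). Gatm was dim, at 3.71 in sleep-deprived and 4.2 in control livers, near the array medians of 3.443 to 3.491. Gamt was at 9.46 in sleep-deprived and 9.9 in control livers. Aldh4a1, an enzyme of proline breakdown, fell by 0.31 ± 0.060 (limma, adjusted p = 0.00193). Oat, the ornithine aminotransferase, was at -0.036 ± 0.074 (limma, adjusted p = 0.870) and Arg2, the mitochondrial arginase, at 0.24 ± 0.14 (adjusted p = 0.406), and neither passed. The level of Arg2, 3.16 in sleep-deprived and 2.92 in control livers, lay below the array medians.

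Transporters of nitrogen compounds at the plasma membrane moved in both directions, with 1 of 17 higher and 4 lower. Slc38a2, a carrier of small neutral amino acids, lay between 9.96 and 10.28 in sleep-deprived and between 9.45 and 9.94 in control mice, and rose by 0.50 ± 0.068 (limma, adjusted p = 5.69e-05). Slc38a3, which carries glutamine, lay between 11.66 and 12.04 in sleep-deprived and between 12.21 and 12.39 in control mice, and fell by 0.41 ± 0.052 (limma, adjusted p = 2.92e-05). Neither pair of ranges overlapped. Aqp9, a channel for glycerol and urea, fell by 0.33 ± 0.065 and the water channel Aqp8 by 0.64 ± 0.14.

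Of 6 measured carbonic anhydrases and mitochondrial deacylases 0 were higher and 3 lower. Car3, an abundant liver carbonic anhydrase, fell by 0.47 ± 0.049 without overlap between the groups (limma, adjusted p = 4.01e-06). Sirt5, which removes succinyl and related groups from CPS1, was at -0.34 ± 0.092 (limma, adjusted p = 0.0252, not past it in 4 of 14 leave-one-out fits). Sirt3, a deacetylase that acts on OTC, was at -0.19 ± 0.057 (limma, adjusted p = 0.0486, not past it in 12 of 14). Sirt3 also did not pass in 3 of 10 other settings.

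Among 17 regulators known to act on transcription of the cycle's genes 2 were higher and 3 lower. Foxo1, a transcription factor restrained by insulin, rose by 0.28 ± 0.060, and Klf15, which acts on amino acid catabolism, by 0.27 ± 0.068 (limma, adjusted p = 0.0157). With centring on the hepatocyte markers Klf15 did not pass (limma, adjusted p = 0.0929). Nr3c1, the glucocorticoid receptor, fell by 0.22 ± 0.055 (limma, adjusted p = 0.0136) and Prkaca, a catalytic subunit of protein kinase A, by 0.19 ± 0.051 (adjusted p = 0.0204). Prkaca did not pass with its probe sets averaged (-0.082; limma, adjusted p = 0.499) or with the sample number as a covariate (-0.17; adjusted p = 0.0796). Gcgr, the glucagon receptor, was called lower at -0.20 ± 0.062 (limma, adjusted p = 0.04996). It was not called in 11 of 14 leave-one-out fits or in 6 of 10 other settings. Cebpb, a C/EBP factor, had a difference of 0.16 ± 0.072, which did not pass (limma, adjusted p = 0.231).

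**Figure D5:**
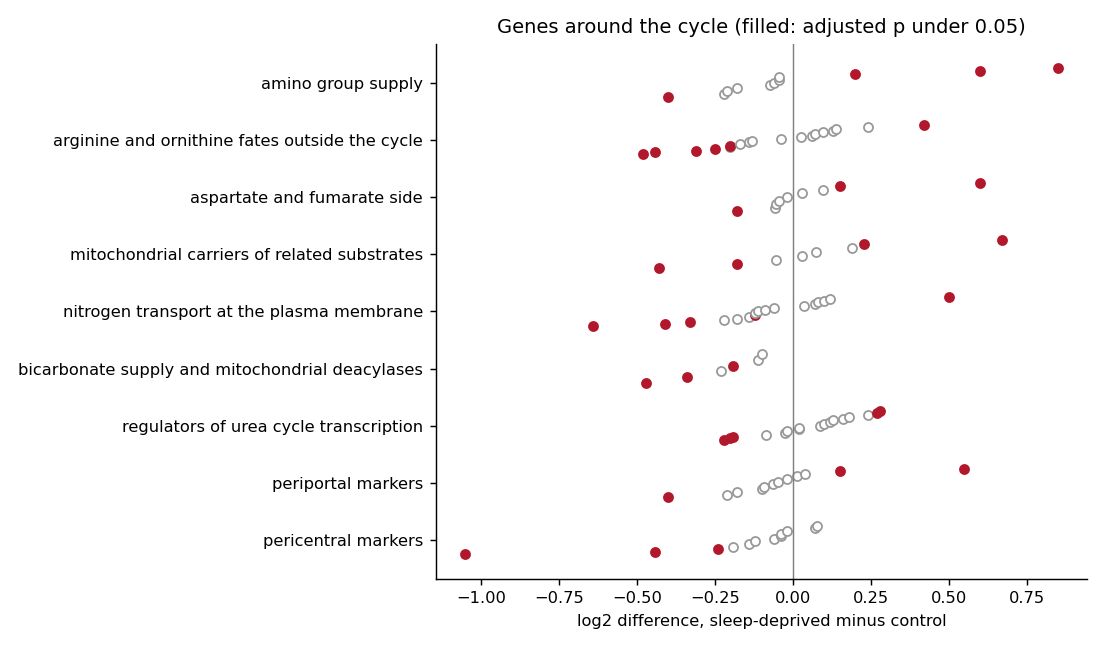
Log2 difference (sleep-deprived minus control) of each measured gene in the 9 lists around the cycle, with filled points for an adjusted p under 0.05 and open points for the rest. Carriers, amino group donors and transporters have filled points on both sides of 0, and the list of carbonic anhydrases and deacylases has all 6 points below 0.

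Markers of the liver's zones changed in part. Of 12 measured periportal markers, the zone in which the cycle is richest, 2 were higher (G6pc at 0.55 and Pck1 at 0.15) and 1 lower (Hal). Pck1 was not called in 9 of 14 leave-one-out fits or in 4 of 10 other settings. The mean level of the periportal markers was 10.13 to 10.27 in sleep-deprived and 10.07 to 10.36 in control mice. Of 12 pericentral markers 0 were higher and 3 lower (Lgr5, Rgn and Lect2), with a mean level of 8.94 to 9.15 in sleep-deprived and 9.12 to 9.32 in control mice. The median of their differences was -0.089. The largest was that of Lgr5 (-1.05), a dim gene at 4.34 in sleep-deprived and 5.4 in control livers. Glul, the glutamine synthetase that takes up ammonia left over by the cycle, had a difference of 0.077 ± 0.036, which did not pass (limma, adjusted p = 0.233).

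Marker lists of other liver cells were read in the same mice. The mean level of 10 sinusoidal endothelial markers was 7.35 to 7.76 in sleep-deprived and 7.17 to 7.52 in control mice (3 higher, 0 lower), and that of 10 stellate markers 6.29 to 6.72 in sleep-deprived and 6.24 to 6.58 in control mice (1 higher, 0 lower). For 10 Kupffer cell markers it was 6.16 to 6.93 in sleep-deprived and 5.95 to 7.19 in control mice (1 higher, 0 lower). The mean of 7 cholangiocyte markers was 3.59 to 4.48 in sleep-deprived and 3.59 to 3.68 in control mice (1 higher, 0 lower), the highest value being sleep-deprived mouse 10. The lymphocyte list had 0 of 9 higher and 1 lower, the neutrophil list 0 of 8 in either direction and the erythroid list 0 of 3 higher and 1 lower. The stellate call ended in 8 of 14 leave-one-out fits, the cholangiocyte call in 7 and 1 of the endothelial calls in 6. The other calls in these lists passed in all 14. Without mouse 10 Asl and Slc25a15 were called higher, and Cps1 was near the threshold (limma, adjusted p = 0.0479). Leaving out this mouse concerns its cholangiocyte value alone and not the other marker lists. The part of cell composition in the results was not tested.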

How the data were processed

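Liver RNA of 14 mice, 100 ng per sample, was biotin-labelled and hybridised to Affymetrix arrays of the whole-transcript type, as the labels' protocols state. The authors deposited log2 values of 41345 probe sets, made by RMA, which corrects background, equalises the distributions of arrays and summarises probes, per the submitters' processing notes. The version of RMA and the annotation are unstated in the labels. RMA compresses differences of dim genes.

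Groups came from the sample titles, which number samples 1 to 14 with no number in both groups. Each is taken as 1 mouse, though the labels do not state it, and p-values then measure the spread between samples. Probe sets with 1 gene symbol in the platform annotation (23521, with 1814 having several and 16010 not listed) were reduced to the brightest per gene, leaving 22180 genes without a filter. Differences were tested with limma 3.58.1 (R 4.3.3; linear fits, moderated with an intensity trend; two-sided; Benjamini-Hochberg over all genes). On simulated data the steps were tested with known changes. Step differences used exact permutation tests, and correlations 100000 permutations within groups (scipy 1.17.1). The members and lists were chosen with earlier results of these data known.

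Named were all members and, in each list around the cycle, up to 4 called genes with the smallest adjusted p. Also named were 9 further genes whatever their result (Car5a was not analysed here), and the 5 genes most like Cps1 and Asl. Genes singled out after their values were seen are Tat, Apoa1, Hnf4a, Apoc3 and Alb. Alternatives were eBayes without trend or robust, array weights, a filter on dim genes, averaged or separate probe sets, median centring, a second quantile normalization, sample number as covariate, centring on hepatocyte markers (added later) and leaving out each mouse. Arrays have no read depth; their number limits the precision.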

Additional observations from a re-analysis of the deposited data

Results flagged for a closer look

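In control livers the highest Otc level, 11.22 in mouse 14, stood apart from the next highest, 11.06, by 0.597 of the group's range, above Dixon's 95% critical value for 7 samples. Chance flags about 1 in 20 such groups, and 24 were examined. Without mouse 14 the Otc difference was -0.071 (limma, adjusted p = 0.255), against -0.099 with it (adjusted p = 0.137), and neither passed.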

How the results depend on the processing

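No paired analysis was possible because the groups share no sample number. Asl and Slc25a15 were called higher in all 14 fits without 1 mouse and in 10 and 9 of the 10 other settings, Slc25a15 being lost with centring on the hepatocyte markers (adjusted p = 0.0847). Cps1 was lost in 10 of those 14 fits and in 3 of the 10 settings: eBayes without the trend (adjusted p = 0.220), quantile normalization again (0.0525) and hepatocyte centring (0.719). Between 2 and 3 members were called in every setting, though with hepatocyte centring the 3 were 1 higher and 2 lower. The sign for Nags turned with its probe sets averaged (0.0016) and with the sample number as a covariate (0.060). Calls over all genes ranged from 1541 to 1893 (1886 in the reported fit) without 1 mouse. With hepatocyte centring 2943 genes passed, 476 higher and 2467 lower, against 861 higher and 1025 lower as reported. With the sample number as a covariate these were 950 and 911. That number, taken from the sample titles, averaged 5.71 in sleep-deprived and 9.29 in control mice (exact permutation test, p = 0.128). Whether it is an order of collection or processing is not in the labels. Ass1 minus Otc lay between 0.23 and 0.38 without 1 mouse and passed only without sleep-deprived mouse 3, while Otc minus Cps1 and Arg1 minus Asl passed in all 14 such fits and with medians.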
